A study of Homo sapiens with 12 samples.

Results

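The 37 genes described here encode chaperones, folding enzymes, degradation factors, translocation factors and stress sensors of the endoplasmic reticulum, the compartment in which secreted and membrane proteins are folded. They were chosen by name, as those rows of the deposited table whose Ensembl identifier belongs to 1 of the 37 listed symbols, out of 58884 genes in the table. All 37 were found and all 37 passed the filter on low counts in every fit. RNA had been sequenced from 2 human lymphoma cell lines, U2932 and TMD8, both established from diffuse large B-cell lymphoma (DLBCL) of the activated B-cell subtype and labelled wild type. Cells were treated for 4 h with 20 µg/mL of rituximab (R), ofatumumab (OF) or a human IgG1 isotype control antibody. R and OF both bind CD20, a surface protein of B cells. Each line was grown as 2 separate cultures, so that each of the 6 conditions had 2 libraries and there were 12 in all. Each line stands for a single tumor, and the 2 replicates are cultures of it.

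In the lumen of the endoplasmic reticulum, the HSP70 chaperone BiP (HSPA5) and the HSP90 chaperone GRP94 (HSP90B1) hold unfolded chains, calreticulin and calnexin retain glycoproteins, and disulfide isomerases form their disulfide bonds. Proteins that fail to fold are retrotranslocated and degraded in the cytosol, a process called ER-associated degradation (ERAD). When unfolded protein accumulates, the sensors IRE1 (ERN1), PERK (EIF2AK3) and ATF6 start the unfolded protein response, in which the transcription factors XBP1, ATF4 and cleaved ATF6 raise chaperone and ERAD genes. In B cells the same program enlarges the secretory apparatus as they become antibody-secreting plasma cells.

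The libraries held 15440226 to 27110612 counts. Levels are given as CPM, counts scaled to a common library size after TMM normalization over the 12 libraries, and as CPM per kilobase of exon where genes are compared with each other. The B-cell markers MS4A1, CD79A, CD79B, PAX5 and CD22 were present in both lines, whereas CD3G and FCGR3A were at 0 in every library. The summed level of the 5 myeloid markers was 0.481 to 1.40 CPM and that of the 5 fibroblast markers 0.700 to 5.73 CPM. The 5 T-cell markers summed to 6.85 to 9.31 CPM in U2932 and to 0.140 to 0.765 CPM in TMD8, nearly all of it TRAC. Among the TMD8 libraries, the second replicates of OF and of isotype differed from the rest. Ribosomal protein genes made up 7.17% and 6.52% of the reads counted in this pair and 10.0% to 10.8% in the other 4, and mitochondrial genes 3.73% and 3.99% as opposed to 5.70% to 6.23%. MS4A1, which encodes CD20, moved with treatment, from 852 and 958 CPM in the U2932 isotype libraries to 1437 to 1698 CPM with the antibodies, and from 1325 and 930.2 CPM to 1475 to 2352 CPM in TMD8. Its part in the member results was not tested, and in bulk RNA fewer cells with a transcript and less of it per cell cannot be told apart. The replicates of a number came from the same culture, so fits with the replicate number as a block (blocked fits) are printed beside the fits without it where they differ.

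Promoters of 6 members are shown because they hold, or lack, the ER stress response element (ERSE), a sequence known to recruit NF-Y together with ATF6 and XBP1. Each runs from 250 bases before to 50 bases after the RefSeq start site in GRCh38.p14, 5′ to 3′ on the gene's strand, and capitals mark an ERSE (CCAAT and CCACG separated by any 9 bases) or an ERSE-II (ATTGG and CCACG separated by any 1 base), searched on both strands. HSPA5 (chr9:125241294-125241593, minus strand) and CRELD2 (chr22:49918384-49918683, plus) carry an ERSE. SDF2L1 (chr22:21642052-21642351, plus) and HERPUD1 (chr16:56931892-56932191, plus) carry 1 ERSE-II each, and HYOU1 (chr11:119057156-119057455, minus) carries 2. DNAJC3 (chr13:95676889-95677188, plus) carries neither.
HSPA5: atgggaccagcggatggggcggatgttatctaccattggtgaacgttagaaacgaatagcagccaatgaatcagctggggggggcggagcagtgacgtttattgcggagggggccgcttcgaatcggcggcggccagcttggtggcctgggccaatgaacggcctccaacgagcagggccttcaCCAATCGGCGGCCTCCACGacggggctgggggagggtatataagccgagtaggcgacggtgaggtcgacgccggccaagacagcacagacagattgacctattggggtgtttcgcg
CRELD2: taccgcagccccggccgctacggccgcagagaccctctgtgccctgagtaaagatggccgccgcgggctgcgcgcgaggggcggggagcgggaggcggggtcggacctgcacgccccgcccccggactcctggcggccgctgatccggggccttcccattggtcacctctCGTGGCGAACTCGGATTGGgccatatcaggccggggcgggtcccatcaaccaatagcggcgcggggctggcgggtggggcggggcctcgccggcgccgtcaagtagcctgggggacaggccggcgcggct
SDF2L1: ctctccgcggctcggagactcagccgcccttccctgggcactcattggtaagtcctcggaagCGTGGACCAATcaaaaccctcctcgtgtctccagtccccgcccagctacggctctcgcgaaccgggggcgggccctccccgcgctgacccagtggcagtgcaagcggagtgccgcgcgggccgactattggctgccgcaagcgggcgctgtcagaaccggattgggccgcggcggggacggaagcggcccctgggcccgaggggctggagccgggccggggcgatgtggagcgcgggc
HERPUD1: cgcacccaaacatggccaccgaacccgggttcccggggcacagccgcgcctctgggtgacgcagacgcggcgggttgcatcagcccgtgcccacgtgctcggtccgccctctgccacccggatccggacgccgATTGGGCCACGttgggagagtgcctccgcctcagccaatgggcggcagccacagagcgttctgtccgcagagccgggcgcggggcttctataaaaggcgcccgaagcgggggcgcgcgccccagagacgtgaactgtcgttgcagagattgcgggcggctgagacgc
HYOU1: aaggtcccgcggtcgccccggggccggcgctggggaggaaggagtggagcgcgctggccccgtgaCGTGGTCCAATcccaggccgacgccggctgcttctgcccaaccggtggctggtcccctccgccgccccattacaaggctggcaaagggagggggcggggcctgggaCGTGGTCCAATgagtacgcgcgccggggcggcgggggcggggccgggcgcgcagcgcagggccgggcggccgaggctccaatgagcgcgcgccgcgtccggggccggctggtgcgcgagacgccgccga
DNAJC3: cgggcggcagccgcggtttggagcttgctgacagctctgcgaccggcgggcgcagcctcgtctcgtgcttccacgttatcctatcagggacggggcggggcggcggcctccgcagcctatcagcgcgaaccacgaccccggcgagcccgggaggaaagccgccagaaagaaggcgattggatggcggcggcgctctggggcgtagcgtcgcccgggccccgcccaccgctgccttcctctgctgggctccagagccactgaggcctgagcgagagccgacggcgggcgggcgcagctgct

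RefSeq promoters were matched for 34 of the 37 members. An ERSE was found in 7 of them (HSPA5, HSP90B1, CALR, CANX, PDIA6, CRELD2 and ERO1B) and an ERSE-II in 3 (HYOU1, SDF2L1 and HERPUD1). Over all 35116 promoters of this length, 0.0769% held an ERSE and 0.0541% an ERSE-II. This share counts promoters, and some genes have more than 1. Of the 41 promoters of the members, 9 held an ERSE and 3 an ERSE-II, with overlapping CANX promoters holding the same site. In HSPA5 the element lay 66 to 48 bases before the start site. In SDF2L1 it lay 188 to 178 bases before and in HERPUD1 117 to 107 bases before.

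The members were more abundant in U2932 than in TMD8 under the isotype control, and none was lower. With isotype, 32 of the 37 genes were higher in U2932 at an adjusted p-value under 0.10 (edgeR's quasi-likelihood test), against 33.2% of the 16187 genes tested, and 0 were lower, against 33.7% of all genes. The median difference over the members was 1.06 on the log2 scale, beside −0.02 over all genes. The members took 1.12% and 1.14% of all counts in the U2932 isotype libraries and 0.533% and 0.556% in those of TMD8. The 5 members not called were SEL1L, SYVN1, DERL2, ATF6B and SEC61B, whose differences were 0.10 to 0.48, and with the block 36 were called.

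The 8 largest differences between the lines included chaperone cofactors, ERAD factors, a signal peptidase subunit and a sensor. DNAJB9 (chr7:108569568-108574850, plus strand, in GRCh38 with GENCODE 29), a BiP cofactor that also restrains IRE1, was at 49.1 and 50.5 CPM in the U2932 isotype libraries and at 5.66 and 3.67 CPM in those of TMD8 (log2 difference 3.42 ± 0.18 SE, adjusted p = 3.39e-08). HYOU1 (chr11:119044189-119057202, minus), a large lumenal HSP70-related chaperone, was at 654 and 592 CPM against 57.6 and 85.2 CPM (3.10 ± 0.20, adjusted p = 1.67e-07). These were the members with the widest separation of the lines, and neither pair of libraries came near the other. DERL3, a derlin of the ERAD channel known from secretory cells, was at 30.3 and 25.5 CPM against 3.42 and 4.16 CPM (2.85 ± 0.20). Of the exonic bases of DERL3, 77.0% are shared with SMARCB1 on the opposite strand, so its counts are uncertain if counting ignored the strand. The same holds for smaller shares in PDIA6 (25.2%), DNAJB11 (23.2%), PDIA3 (18.9%) and EIF2AK3 (15.1%). HERPUD1, which gathers the ERAD machinery at the membrane, was at 328 and 337 CPM against 71.3 and 71.0 CPM (2.2 ± 0.12). EIF2AK3 (chr2:88556741-88627576, minus), the PERK kinase, was at 89.1 and 96.8 CPM against 19.9 and 20.6 CPM (2.17 ± 0.13). The libraries of the 2 lines stayed far apart for each of these genes.

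Both DNAJB11 and DNAJC3 encode J-domain partners of BiP. DNAJB11 was at 131 and 144 CPM in U2932 and 36.1 and 30.1 CPM in TMD8, and DNAJC3 at 155 and 179 CPM against 40.2 and 40.2 CPM, each a log2 difference of 2.03. SPCS3, a subunit of the signal peptidase, was at 404 and 423 CPM against 118 and 98.4 CPM (1.91 ± 0.13). HSPA5 itself was at 901 and 968 CPM in U2932 and at 277 and 280 CPM in TMD8 (1.72 ± 0.13, adjusted p = 4.70e-07). The smallest called differences were in PDIA6 (0.28 ± 0.13), CALR (0.31 ± 0.12) and ATF6 (0.31 ± 0.14).

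Per kilobase of exon, the most abundant members in the U2932 isotype libraries were CALR (364 CPM per kilobase), HSP90B1 (277), HSPA5 (239) and SEC61B (227). In TMD8 CALR (289) and SEC61B (172) were followed by HSP90B1 (162) and PDIA6 (123), and HSPA5 was at 71.3. The sensors were far lower, with ERN1 at 3.08 CPM per kilobase in U2932 and 0.833 in TMD8 and ATF6 at 12.7 and 10.1. Markers of plasma cells moved with the line in both directions. Of the 6 listed, JCHAIN, TNFRSF17, MZB1 and SDC1 were higher in U2932 and PRDM1 and IRF4 were lower, and their sum was 1333 and 1341 CPM in the U2932 isotype libraries and 1056 and 1360 CPM in those of TMD8. JCHAIN, the joining chain of secreted IgM and IgA, was at 624 and 635 CPM against 7.79 and 5.87 CPM. The part of these differences in the member levels was not tested.

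**Figure D1:**
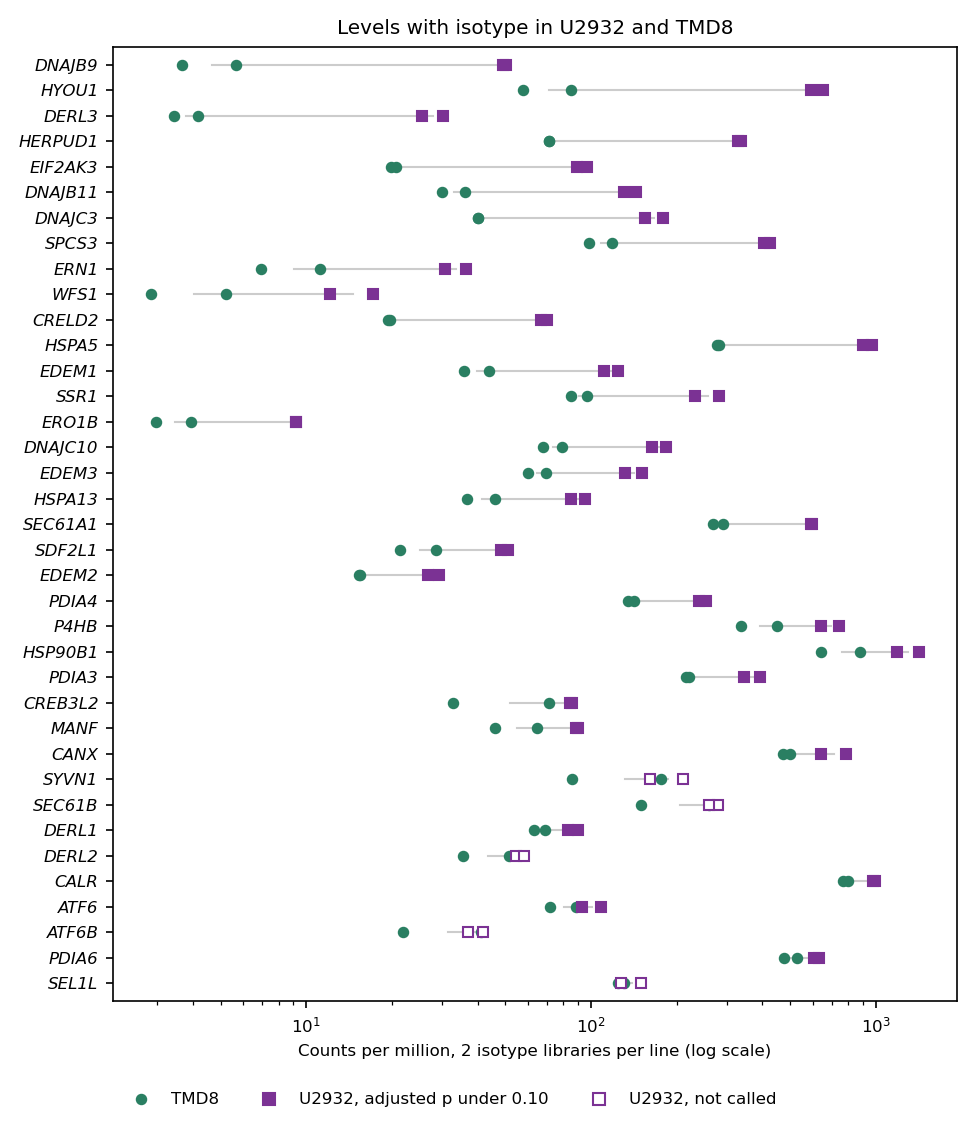
CPM of the 37 members on a log axis in the 2 isotype libraries of TMD8 (circles) and of U2932 (squares, filled where the lines differed at an adjusted p-value under 0.10), ordered by the fitted difference. The squares lie to the right of the circles in nearly every row, from DNAJB9 (log2 difference 3.42) at the top to SEL1L (0.10) at the bottom.

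In TMD8, HSPA5 rose with either antibody and DNAJC3 with R. HSPA5 (chr9:125234853-125241330, minus) was at 277 and 280 CPM with isotype, 785 and 768 CPM with R and 875 and 755 CPM with OF. All 4 anti-CD20 libraries were far above the isotype libraries, yet below the 901 CPM of the lower U2932 isotype library. The log2 fold change was 1.46 ± 0.18 with R (2.75-fold, adjusted p = 0.0697) and 1.54 ± 0.18 with OF (2.90-fold, adjusted p = 0.0851). DNAJC3 (chr13:95677139-95794989, plus), a J-domain partner of BiP that also inhibits PERK, was at 40.2 and 40.2 CPM with isotype, 83.9 and 77.5 CPM with R and 68.3 and 70.3 CPM with OF. Its log2 fold change was 0.99 ± 0.14 for R (adjusted p = 0.0803) and 0.77 ± 0.14 for OF (adjusted p = 0.108). Only the former was past the threshold, while the difference between R and OF was 0.21 ± 0.14 (adjusted p = 0.733).

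Without the block, 2 of 37 members were higher with R in TMD8 (0.401% of the 14227 genes tested were) and 1 with OF (0.471% of all genes), and 0 were lower with either (0.246% and 0.344% of all genes). In the blocked fits, 17 members were higher with R (8.99% of all genes) and 0 lower (8.73%), and with OF 13 were higher (7.45%) and 1 was lower (6.87%). The median member changed by 0.42 with R and 0.34 with OF without the block, and the medians over all genes were −0.02 and −0.01. Both R libraries lay above both isotype libraries for 23 members, which held for 23.7% of all genes, and both OF libraries for 18, against 18.6% of all genes. The members' share of all counts was 0.689% and 0.702% with R and 0.712% and 0.714% with OF, above both isotype libraries (0.533% and 0.556%) and below every U2932 library (1.09% to 1.14%).

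Each of these calls was lost when any of several libraries was left out. The unblocked call of HSPA5 with R was lost without R replicate 1 (adjusted p = 0.894) or R replicate 2 (0.647), which leaves R with 1 library. With OF it was lost without OF replicate 1 (0.306) or 2 (0.219), R replicate 1 (0.375) or 2 (0.376) or isotype replicate 1 (0.121). DNAJC3 with R was lost without R replicate 1 (0.894) or 2 (0.648), OF replicate 1 (0.106) or 2 (0.105) or isotype replicate 2 (0.126). The fitted change stayed at 1.45 to 1.49 for HSPA5 with R, 1.43 to 1.64 with OF and 0.93 to 1.06 for DNAJC3. Both libraries that differed from the rest were also left out, a choice made after the data were seen. The isotype and OF groups then had 1 library each, assumed to vary like the rest. The share of all genes called in that fit is not given. Its member counts are therefore listed only with the alternatives at the end.

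Among the 17 members that rose with R in the blocked fit were 7 lumenal chaperones and cofactors. Of the 10 genes of that group, 7 rose with R (HSPA5, HSP90B1, SDF2L1, MANF, DNAJB11, DNAJC3 and DNAJC10) and 5 with OF (HSPA5, SDF2L1, MANF, DNAJB11 and DNAJC3). DNAJB11 was at 36.1 and 30.1 CPM with isotype, 70.7 and 65.0 CPM with R and 66.1 and 49.3 CPM with OF, with log2 fold changes in the blocked fit of 1.02 ± 0.13 (adjusted p = 0.00506) and 0.78 ± 0.13 (adjusted p = 0.0134). SDF2L1, a stress-induced partner of DNAJB11, was at 28.6 and 21.4 CPM, 40.1 and 45.2 CPM, and 55.9 and 47.5 CPM in the same order, or 0.77 ± 0.16 (adjusted p = 0.0244) and 1.04 ± 0.16 (adjusted p = 0.0103). Neither gene's anti-CD20 libraries overlapped its isotype libraries. Of all genes in TMD8, 23.7% lay above both isotype libraries with R and 18.6% with OF. HSP90B1 was at 877 and 645 CPM with isotype and at 1229 and 1147 CPM with R (0.64 ± 0.16, adjusted p = 0.0438), and at 1148 and 884 CPM with OF (0.41 ± 0.16, adjusted p = 0.161). The other 3 members of the group, HSPA13, HYOU1 and DNAJB9, did not pass the test with either antibody and ranged from −0.13 to 0.45.

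Folding enzymes and lectin chaperones moved with them in the blocked fit. CALR and CANX, the glycoprotein chaperones calreticulin and calnexin, both rose with R (0.56 ± 0.16, adjusted p = 0.0569, and 0.70 ± 0.14, adjusted p = 0.0221), and CALR rose with OF (0.68 ± 0.16, adjusted p = 0.0352). Of the 6 disulfide isomerases and related factors, PDIA3, PDIA4, CRELD2 and ERO1B rose with both antibodies. ERO1B, an oxidase that recharges disulfide isomerases, was at 3.92 and 2.97 CPM with isotype, 8.27 and 6.77 CPM with R and 7.13 and 7.01 CPM with OF (1.12 ± 0.21, adjusted p = 0.0168, and 1.04 ± 0.21, adjusted p = 0.0237). The remaining pair, PDIA6 and P4HB, did not pass, and P4HB stood at −0.28 ± 0.15 with R and 0.13 ± 0.15 with OF.

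Of the 9 ERAD genes in TMD8, HERPUD1 rose with both antibodies in the blocked fit, SEL1L with R and DERL3 with OF. HERPUD1 was at 71.3 and 71.0 CPM with isotype, 112 and 118 CPM with R and 126 and 117 CPM with OF (0.67 ± 0.13, adjusted p = 0.0161, and 0.76 ± 0.13, adjusted p = 0.0125). SYVN1, the ERAD ubiquitin ligase, was at 85.7 and 176 CPM with isotype and at 112 and 190 CPM with OF, so that its replicates differed more than its conditions. CREB3L2 (32.7 and 71.2 CPM with isotype), WFS1 (2.86 and 5.24 CPM) and ATF6B (21.9 and 40.9 CPM) were also higher in isotype replicate 2, and SEC61B was lower there (259 and 150 CPM). Of the 4 translocation genes, SSR1, a subunit of the translocon-associated complex, rose with both (0.75 ± 0.13, adjusted p = 0.0114, and 0.43 ± 0.13, adjusted p = 0.0763) and SPCS3 with R (0.46 ± 0.13, adjusted p = 0.0564).

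None of the 6 sensors and membrane regulators rose in TMD8. ATF6 fell with OF in the blocked fit (by 0.45 on the log2 scale, SE 0.12, adjusted p = 0.0622), from 88.2 and 71.9 CPM with isotype to 64.0 and 54.1 CPM, and stood at 82.2 and 75.5 CPM with R. EIF2AK3 was at 19.9 and 20.6 CPM with isotype, 18.6 and 21.0 CPM with R and 18.4 and 21.4 CPM with OF. ERN1 was at 6.95 and 11.1 CPM, 7.75 and 7.51 CPM, and 8.51 and 15.0 CPM. The groups overlapped for both kinases.

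**Figure D2:**
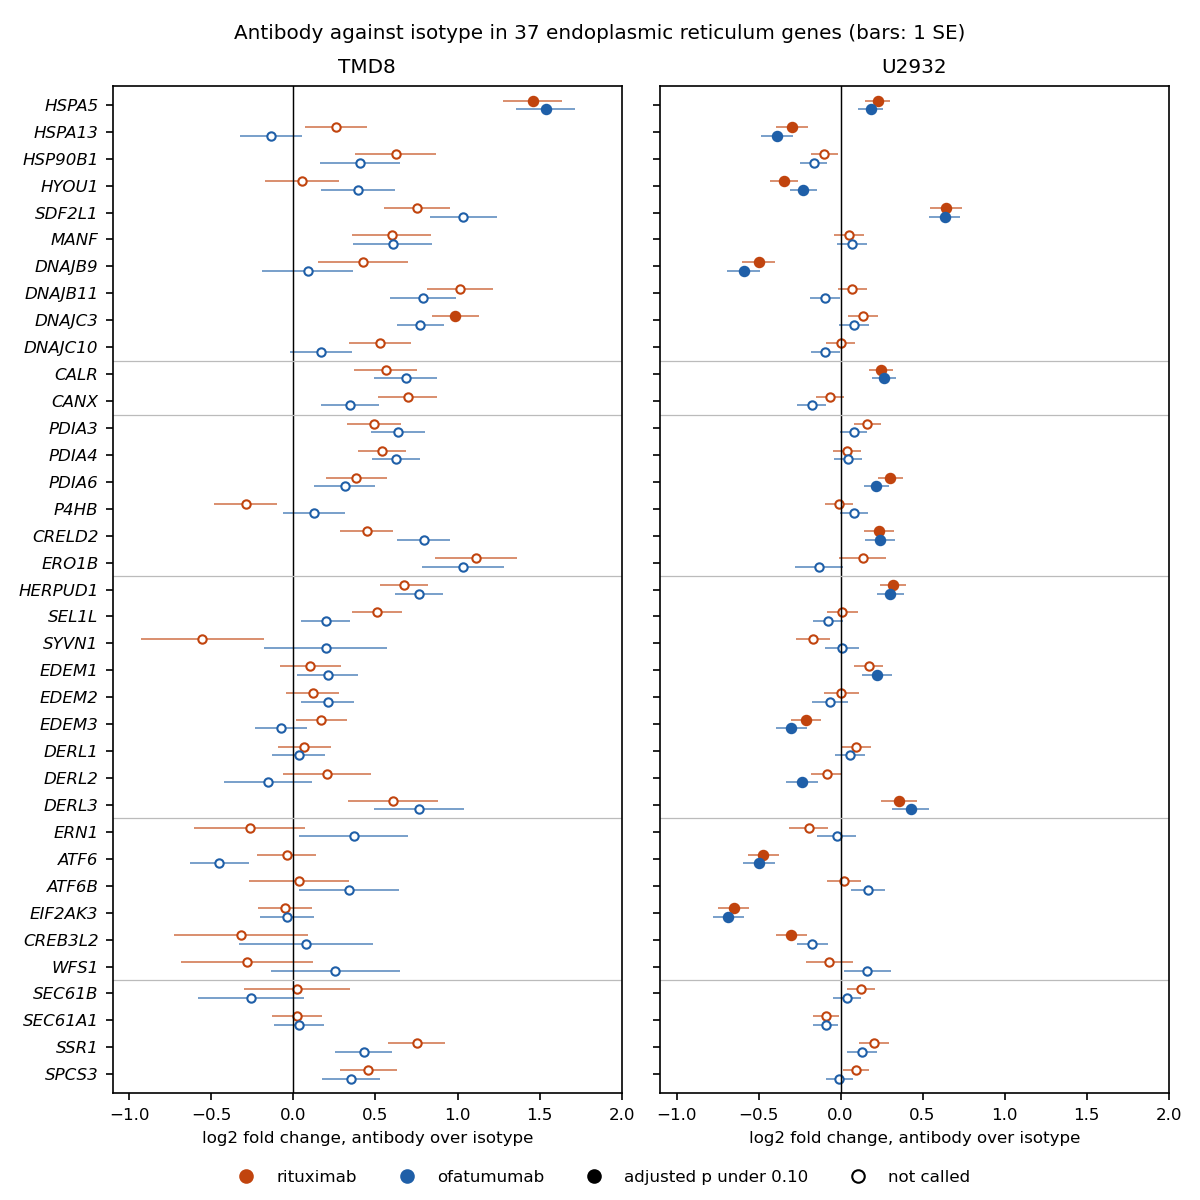
Log2 fold change of each of the 37 members with rituximab (R) and ofatumumab (OF) over isotype, without the replicate block, in TMD8 (left) and U2932 (right), with bars of 1 standard error and filled points at an adjusted p-value under 0.10. Gray lines part the 6 roles, and the lumenal chaperones at the top of the TMD8 panel lie right of 0 except HSPA13 with OF, while in U2932 called genes lie on both sides, from SDF2L1 (0.65 with R) to EIF2AK3 (−0.68 with OF).

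In U2932 the same antibodies raised some members and lowered others. With R, 7 members were higher (16.8% of the 14635 genes tested) and 7 lower (17.4%), and with OF 8 were higher (18.7%) and 7 lower (17.8%). The ribosomal protein share of counts moved with treatment in U2932, at 4.76% and 4.45% with isotype and 6.04% to 6.57% with the antibodies, and its part in the member changes was not tested. The called shares of the 37, 18.9% to 21.6%, are near those of all genes. The median member changed by 0.02 with R and 0.01 with OF. With scaling by total counts, which moved the median of all genes to −0.12 with R and −0.07 with OF, the split became 4 higher and 10 lower with R and 4 and 11 with OF. With the block 8 and 7 members were called with R and 8 and 9 with OF. With all 12 libraries in 1 fit, 1 was higher and 2 lower with R, and 1 higher and 3 lower with OF.

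The members that rose in U2932 were chaperones, isomerases and ERAD factors. SDF2L1 rose most, from 51.1 and 48.1 CPM with isotype to 80.0 and 77.2 CPM with R and 82.2 and 73.8 CPM with OF, which is 0.65 ± 0.10 on the log2 scale with R (adjusted p = 1.63e-05) and 0.63 ± 0.10 for OF (adjusted p = 2.2e-05). DERL3 was at 30.3 and 25.5 CPM, 37.3 and 34.9 CPM, and 39.1 and 36.9 CPM in the same order (0.35 ± 0.11, adjusted p = 0.0175, and 0.43 ± 0.11, adjusted p = 0.00454). HERPUD1 was at 328 and 337 CPM, 400 and 441 CPM, and 415 and 416 CPM (0.32 ± 0.08, adjusted p = 0.00443, and 0.30 ± 0.08, adjusted p = 0.00636). For these genes no anti-CD20 library overlapped the isotype libraries. Both R libraries lay above both isotype libraries for 28.9% of all genes and 16 of the 37 members. Both OF libraries did so for 32.6% of all genes and 9 members. CALR was at 994 and 980 CPM, 1171 and 1197 CPM, and 1213 and 1191 CPM (0.24 ± 0.07 and 0.27 ± 0.07). PDIA6, a disulfide isomerase that binds BiP and PERK, was at 606 and 631 CPM, 769 and 777 CPM, and 723 and 734 CPM (0.30 ± 0.08 and 0.22 ± 0.08). CRELD2, a stress-induced secreted factor with disulfide isomerase activity, was at 70.3 and 66.7 CPM, 83.5 and 79.7 CPM, and 81.2 and 82.6 CPM (0.23 ± 0.09 and 0.24 ± 0.09). All of these passed the test with both antibodies. HSPA5 rose by 0.23 ± 0.08 after R (adjusted p = 0.026) and by 0.18 ± 0.08 after OF (adjusted p = 0.0675), and EDEM1, which extracts glycoproteins for ERAD, rose by 0.22 ± 0.09 with OF (adjusted p = 0.0638) and stood at 0.17 ± 0.09 with R (adjusted p = 0.170).

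The members that fell in U2932 included 2 of the stress sensors. EIF2AK3 was at 89.1 and 96.8 CPM with isotype, 58.2 and 61.5 CPM with R and 60.6 and 56.6 CPM with OF, and fell by 0.65 (SE 0.09, adjusted p = 1.03e-05) and by 0.68 (SE 0.10, adjusted p = 6.23e-06) on the log2 scale. ATF6 was at 92.9 and 108 CPM, 71.8 and 75.3 CPM, and 71.1 and 73.2 CPM, and fell by 0.47 (adjusted p = 0.000532) and by 0.50 (adjusted p = 0.000316). DNAJB9 was at 49.1 and 50.5 CPM, 36.2 and 35.1 CPM, and 32.9 and 34.1 CPM, and fell by 0.50 (adjusted p = 0.000436) and by 0.59 (adjusted p = 7.93e-05). Each of these genes was lower in all 4 anti-CD20 libraries than in both isotype libraries. Both R libraries lay below both isotype libraries for 30.9% of all genes and 9 of the 37 members. Both OF libraries did so for 31.8% of all genes and 12 members. HYOU1 was at 654 and 592 CPM, 527 and 466 CPM, and 533 and 546 CPM, and fell by 0.35 (adjusted p = 0.00314) and by 0.23 (adjusted p = 0.0454). HSPA13, a small membrane-bound HSP70, was at 84.8 and 95.0 CPM, 70.8 and 77.6 CPM, and 66.0 and 73.2 CPM, and fell by 0.29 (adjusted p = 0.0236) and by 0.39 (adjusted p = 0.00353). EDEM3, a mannose-trimming enzyme of ERAD, was at 131 and 151 CPM, 129 and 119 CPM, and 114 and 118 CPM, and fell by 0.21 (adjusted p = 0.0964) and by 0.30 (adjusted p = 0.0163). These 6 passed the test with both antibodies. CREB3L2, a membrane-bound transcription factor, was at 85.9 and 84.7 CPM with isotype and fell with R, to 72.3 and 68.0 CPM (by 0.30, adjusted p = 0.0175), and DERL2 was at 54.7 and 58.0 CPM and fell with OF, to 48.3 and 48.7 CPM (by 0.23, adjusted p = 0.070).

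Leaving out each U2932 library in turn kept the calls of SDF2L1, DNAJB9, ATF6 and EIF2AK3 with both antibodies. With R, HYOU1, CALR, PDIA6 and HERPUD1 were kept as well. HSPA5 was lost without OF replicate 2 (adjusted p = 0.105), HSPA13 without R replicate 1 (0.194) or isotype replicate 2 (0.106), DERL3 without R replicate 1 (0.138) or isotype replicate 2 (0.125) and CREB3L2 without R replicate 2 (0.161). CRELD2 with R was lost without any library but isotype replicate 1 (0.110 to 0.275), and so was EDEM3 (0.1002 to 0.435). With OF, DERL3 was kept, HSPA13 was lost without OF replicate 1 (0.142), and the calls of HSPA5, HYOU1, CALR, PDIA6, CRELD2, HERPUD1, EDEM1, EDEM3 and DERL2 were lost without OF replicate 1 (0.101 to 0.411) or OF replicate 2 (0.103 to 0.329). HSPA5, HYOU1 and EDEM1 were also lost without isotype replicate 1 (0.143 to 0.247) and CRELD2, EDEM3 and DERL2 without isotype replicate 2 (0.112 to 0.149).

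**Figure D3:**
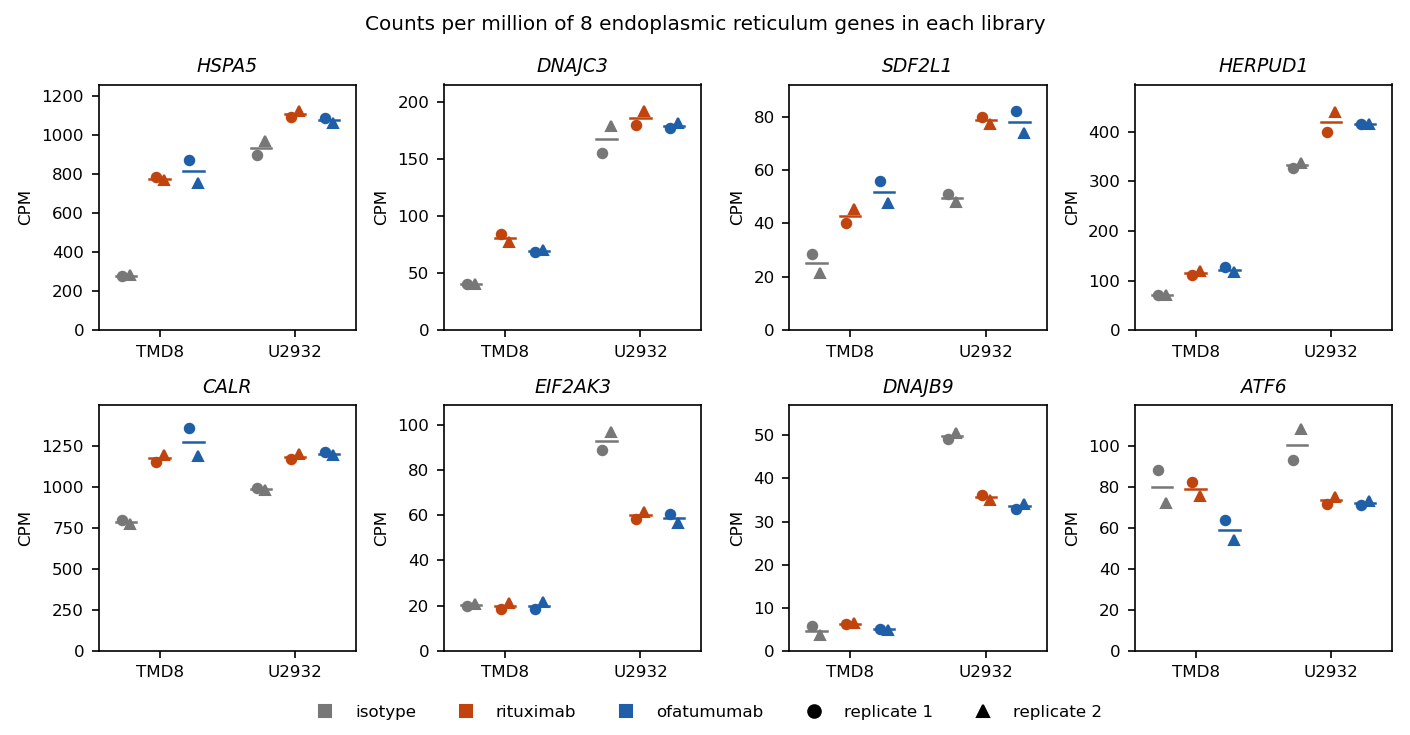
CPM of 8 members in each library, with circles for replicate 1, triangles for replicate 2 and a bar at the mean of each condition, for TMD8 (left of each panel) and U2932 (right). HSPA5 in TMD8 moves from 277 and 280 CPM with isotype to 755 to 875 CPM with anti-CD20 antibodies, whereas EIF2AK3, DNAJB9 and ATF6 in U2932 lie below their isotype libraries.

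R and OF were not told apart by any member. No member differed between R and OF at an adjusted p-value under 0.10 in U2932, where 0.00683% of all genes did (1 gene), or in TMD8, where 0% did. DESeq2 called 0 members in either line as well, and 747 of all genes in U2932 and 582 in TMD8 had an unadjusted p-value under 0.05 in edgeR. For HSPA5 the difference of R minus OF was 0.04 ± 0.08 in U2932 and −0.08 ± 0.18 in TMD8. In TMD8 the difference was above 0 for 17 members and below 0 for 20, with a median of −0.01, and ran from −0.75 ± 0.38 for SYVN1 and −0.63 ± 0.34 for ERN1 to 0.39 ± 0.19 for HSPA13 and 0.41 ± 0.18 for ATF6, each of these at an adjusted p of 0.733. With both TMD8 libraries that differed from the rest left out, 1 member differed. These estimates do not show that the antibodies act alike.

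The log2 fold change with R was lower in U2932 than in TMD8 for 2 members, HSPA5 (difference of the log2 fold changes −1.22 ± 0.18, adjusted p = 0.0399) and DNAJC3 (−0.84 ± 0.16, adjusted p = 0.0997), where 0.179% of the 16187 genes tested were lower. With OF it was lower for HSPA5 (−1.35 ± 0.18, adjusted p = 0.027), where 0.0494% of all genes were lower. In the blocked fits 14 members had a lower value in U2932 with R (3.27% of all genes) and 6 with OF (1.14%). For R these were HSPA5, HSPA13, HSP90B1, MANF, DNAJB9, DNAJB11, DNAJC3, DNAJC10, CANX, PDIA4, ERO1B, SEL1L, EIF2AK3 and SSR1, and for OF HSPA5, DNAJB11, DNAJC3, PDIA4, ERO1B and EIF2AK3. DNAJB11, for example, differed by −0.94 ± 0.15 for R (adjusted p = 0.0108) and −0.88 ± 0.15 for OF (adjusted p = 0.0223), with 0.07 and −0.09 in U2932 beside 1.02 and 0.79 in TMD8. Without 1 library the call of HSPA5 was lost for R with any R library, U2932 OF library or U2932 isotype library left out (adjusted p 0.129 to 0.279), and for OF without a U2932 OF or isotype library (0.162 to 0.293). That of DNAJC3 for R was lost without the same 8 libraries (0.166 to 0.541).

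The members with an ERSE or ERSE-II in the promoter window made up most of those that rose in U2932. Of the 10 such members, 6 rose and 1 fell with R and likewise with OF. Of the 24 with a matched promoter and neither element, 0 rose and 6 fell with R, and 1 rose and 6 fell with OF. Of all genes tested in U2932, 16.8% rose and 17.4% fell with R, and 18.7% rose and 17.8% fell with OF. The 6 members with an element that rose were HSPA5, SDF2L1, CALR, PDIA6, CRELD2 and HERPUD1. The 1 that fell was HYOU1, whose promoter holds the element 2 times. DERL3, which also rose with both antibodies, had no matched promoter and is in neither group. In the blocked fits of TMD8, 8 of the 10 rose with R and 6 with OF, against 8 and 5 of the 24 others. The medians were 0.66 and 0.72 against 0.15 and 0.20, and 1 of the 24 others fell with OF. In those fits 8.99% of all genes rose with R, and 7.45% rose and 6.87% fell with OF. Only exact letters were searched, so variants of the elements were not counted. The motif search was made after the responses were known, so these counts are a description.

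Transcription factors and signalling genes of the unfolded protein response outside the 37 changed in mixed directions. Of 19 listed genes, 17 were tested in U2932, where 3 rose and 7 fell with R and 5 rose and 5 fell with OF. Among all genes tested there, 16.8% rose and 17.4% fell with R, and 18.7% rose and 17.8% fell with OF. MBTPS1, the site-1 protease that cleaves ATF6 and the SREBP factors, was at 51.0 and 48.6 CPM with isotype, 118 and 116 CPM with R and 116 and 126 CPM with OF (1.21 ± 0.09, adjusted p = 6.18e-10, and 1.26 ± 0.09, adjusted p = 3.46e-10). CHAC1, a glutathione-degrading enzyme and known ATF4 target, was at 1.34 and 1.79 CPM, 6.11 and 8.56 CPM, and 8.57 and 8.16 CPM (2.21 ± 0.22 and 2.39 ± 0.22). PPP1R15A, which directs the dephosphorylation of eIF2alpha and is also an ATF4 target, fell from 132 and 131 CPM to 78.3 and 74.2 CPM with R and 87.5 and 88.7 CPM with OF. These libraries did not overlap those of isotype for any of these genes. Of all genes in U2932, 28.9% lay above both isotype libraries with R and 32.6% with OF, and 30.9% and 31.8% lay below both.

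In TMD8, 15 of the 19 were tested and 0 passed the test without the block, with R or with OF. In the blocked fits 2 rose and 5 fell with R, and 3 rose and 2 fell with OF. Among all genes in these fits, 8.99% rose and 8.73% fell with R, and 7.45% rose and 6.87% fell with OF. XBP1 was at 25.9 and 17.6 CPM with isotype, 55.9 and 47.6 CPM with R and 55.6 and 39.1 CPM with OF, and the increase passed the test with the block (adjusted p = 0.00267 and 0.00577). In U2932 XBP1 was at 452 and 497 CPM with isotype, and fell to 394 and 433 CPM with R (by 0.22, adjusted p = 0.0564) and to 404 and 386 CPM with OF (by 0.28, adjusted p = 0.0117). Its isotype level was 21.6-fold higher in U2932 than in TMD8 (log2 difference 4.43 ± 0.23). Total gene counts do not tell spliced from unspliced XBP1 mRNA. ATF4 fell with the block in TMD8 (adjusted p = 0.0174 with R and 0.0117 with OF), from 408 and 296 CPM to 215 and 197 CPM and to 222 and 156 CPM, and fell in U2932 by 0.36 and 0.40 (adjusted p = 0.00119 and 0.000498). TRAF2, an adaptor of IRE1, was at 36.8 and 45.2 CPM in TMD8 with isotype and fell with R to 23.9 and 25.1 CPM (adjusted p = 0.0125 with the block), and in U2932 it fell with R by 0.37 (adjusted p = 0.0109).

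**Figure D4:**
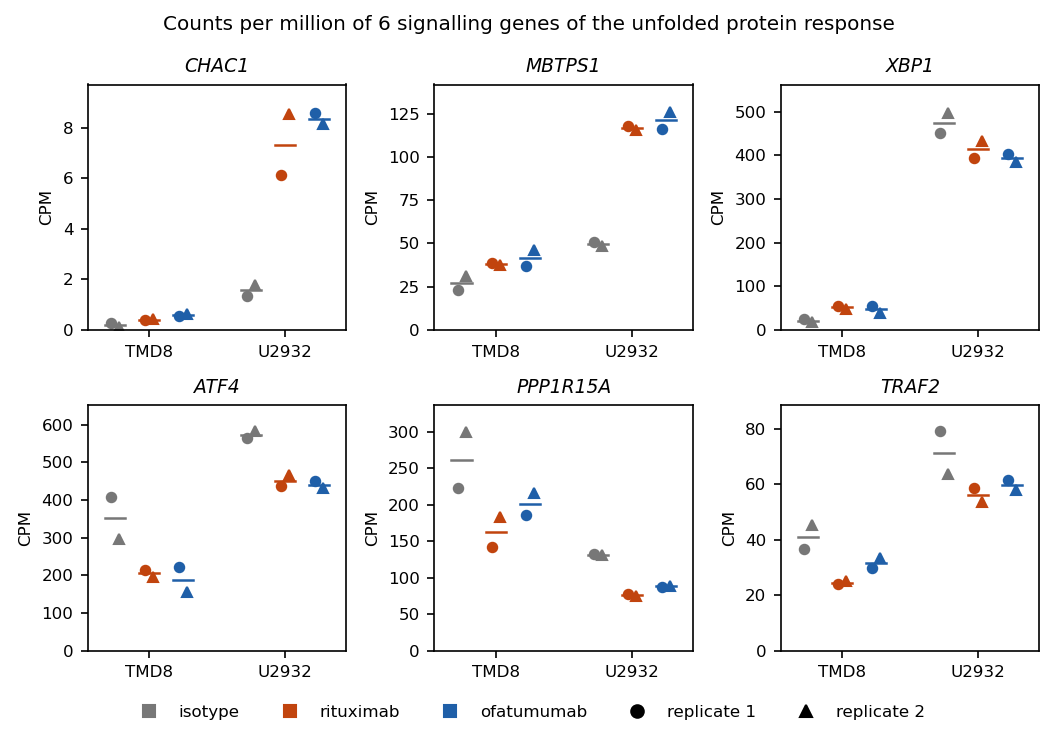
CPM in each library of 6 signalling genes of the unfolded protein response that are not among the 37, with circles for replicate 1, triangles for replicate 2 and a bar at the mean. CHAC1 and MBTPS1 rise in U2932 while ATF4 and PPP1R15A fall, and XBP1 lies at 452 and 497 CPM in the U2932 isotype libraries and at 25.9 and 17.6 CPM in those of TMD8.

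Further folding factors outside the 37 changed in both directions. For the counts of this paragraph, 16.8% of all genes rose and 17.4% fell with R in U2932, and 18.7% and 17.8% with OF. With the block in TMD8, 8.99% of all genes rose and 8.73% fell with R, and 7.45% and 6.87% with OF. Of 27 tested in U2932, 6 rose and 2 fell with R and 4 rose and 4 fell with OF, among them ERP29 (0.55 ± 0.09 and 0.56 ± 0.09) and the peroxiredoxin PRDX4 (0.53 ± 0.10 and 0.42 ± 0.10), which rose, and FKBP14 (−0.44 ± 0.12 and −0.29 ± 0.12), which fell. Of 29 tested in TMD8, 0 passed without the block and 5 rose and 2 fell with R and 1 rose with OF with it. PDIA2, which had very few counts, rose there with both antibodies in the blocked fit, from 0.280 and 0.349 CPM to 0.912 and 1.30 CPM with R. UGGT2, a folding sensor of glycoproteins that was named after its values were seen, rose with R from 16.1 and 18.1 CPM to 26.5 and 24.4 CPM and was at 0 counts in all 6 U2932 libraries. Of 24 further ERAD factors in U2932, 2 rose and 6 fell with R and 3 rose and 6 fell with OF. UFD1 (0.88 ± 0.09 and 0.80 ± 0.09) and VCP (0.59 ± 0.08 and 0.67 ± 0.08), which together pull substrates out of the membrane, rose, and the conjugating enzyme UBE2J1 fell by 0.26 and by 0.34. In TMD8 UBE2J1 rose with the block (adjusted p = 0.0202 and 0.0453). In all, 0 of these 24 passed there without the block, and 1 rose and 2 fell with R and 1 rose and 3 fell with OF with it.

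Translocation, signal peptide and glycosylation factors outside the 37 rose more often than they fell in U2932. Of 30 tested, 14 rose and 4 fell with R, and 10 rose and 5 fell with OF. SPCS1, a signal peptidase subunit, rose by 0.67 ± 0.10 and 0.52 ± 0.11, OSTC, a subunit of the oligosaccharyltransferase, by 0.51 ± 0.10 and 0.28 ± 0.10, and SRP9, of the signal recognition particle, by 0.44 ± 0.09 and 0.33 ± 0.09. In TMD8 0 of 30 passed without the block, and 7 rose and 0 fell with R and 3 rose and 1 fell with OF with it, SSR2 with both (adjusted p = 0.0123 and 0.0231). With the block 8.99% of all genes rose and 8.73% fell with R, and 7.45% and 6.87% with OF.

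The cytosolic heat shock genes, which answer to a separate stress pathway, rose in U2932. Of 10 tested in U2932, 9 rose and 0 fell with either antibody, with medians of 0.94 and 0.91. There 16.8% of all genes rose and 17.4% fell with R, and 18.7% and 17.8% with OF. HSPA8 went from 750 and 787 CPM to 2348 and 2485 CPM with R and 2166 and 2207 CPM with OF. In TMD8 0 passed without the block, and with it 6 rose with R and 4 with OF and 0 fell, with medians of 0.54 and 0.46 in that fit. With the block 8.99% of all genes rose and 8.73% fell with R, and 7.45% and 6.87% with OF. With isotype all 10 heat shock genes were lower in U2932 than in TMD8, whereas the 10 lumenal chaperones and cofactors were all higher. Of all genes, 33.7% were called lower in U2932 and 33.2% higher.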

How the data were processed

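RNA libraries of 12 samples had been made with the NEBNext Ultra II RNA kit. Per the submitters' processing notes, reads were handled with Trim Galore 0.6.0, cutadapt and FastQC, aligned with STAR 2.7.0e to GRCh38 (hg38) and tested with DESeq2 1.26.0. The authors deposited raw counts per Ensembl gene, which were used here as deposited. The annotation release and strand setting were not given in the sources used here. All columns matched a labelled sample (0 unmatched), and 0 rows named no gene. Symbols and positions came from GENCODE 29 for 58611 of 58884 genes, and 27447 genes had no counts.

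Each cell line was fitted with edgeR 4.0.16 (R 4.3.3, limma 3.58.1) after filterByExpr and TMM normalization, using the quasi-likelihood test with Benjamini-Hochberg adjustment over all genes tested. Comparisons between the lines used all 12 libraries. The limit was an adjusted p under 0.10 with no fold limit. CPM were TMM-normalized over all 12 libraries. Values after ± are standard errors of the log2 fold change. The fits were tested on simulated data, with a minimum recovery set for large changes. R versus isotype in TMD8 was exempt from that minimum. Recovery values are not given here, so the TMD8 fit is not shown to have met it. Figures were drawn with Python 3.11.15 and matplotlib 3.10.9.

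The labels say that each line was split into 2 cultures that were kept apart and then treated, so a replicate number marks a shared culture. Deviations from the condition means correlated at 0.69 (OF and isotype), 0.23 (R and isotype) and 0.22 (R and OF) in TMD8, and at −0.0007, 0.10 and −0.05 in U2932. Without the block, the p-values of a line's fit measure the spread between its 2 cultures. With the block, they measure the spread left after a replicate difference common to R, OF and isotype is removed. In TMD8 the deviations of R followed those of OF and isotype less closely (0.22 and 0.23) than these followed each other (0.69). The blocked fits nevertheless take the same replicate difference for R. Fits of all 12 libraries pool the spread of both lines. Library totals were 15440226 to 27110612 counts, and the median standard error over genes was 0.12 in U2932 and 0.25 in TMD8.

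The members and lists were chosen with earlier results of these data known. Library values were to be given for the 12 called members with the largest changes per line, the 8 with the largest differences between lines, and up to 3 genes with the smallest adjusted p per other list and line. Members called only with the block were chosen after their values were seen. The alternatives were DESeq2 1.42.0, other normalizations, filters and thresholds, a correction for GC content, the replicate block, all libraries in 1 fit, each library left out, and, added after seeing the data, both TMD8 libraries that differed from the rest left out. Promoters were RefSeq windows of 300 bases (GRCh38.p14). Some genes of the other lists are not reported here by name.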

Additional observations from a re-analysis of the deposited data

Results flagged for a closer look

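The change of some members with an antibody differed between the cell lines. The log2 fold change of HSPA5 was lower in U2932 than in TMD8 by a tested difference of −1.22 with R (edgeR, adjusted p = 0.0399) and −1.35 with OF (adjusted p = 0.0270), and that of DNAJC3 by −0.84 with R (adjusted p = 0.0997). HSPA5 was higher in both pairs of libraries in each line, so the lines differed in size and not in direction.

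For 4 members the libraries of the lines moved in opposite directions although the difference did not pass the test. Of all genes, 23.7% lay above both isotype libraries with R in TMD8, and 30.9% lay below both in U2932. With OF these shares were 18.6% and 31.8%. The share of all genes meeting both at once is not given, so the 4 are a description. With R, HSPA13 (−0.55, adjusted p = 0.340), DNAJB9 (−0.93, adjusted p = 0.191) and EDEM3 (−0.37, adjusted p = 0.456) were above isotype in TMD8 and below it in U2932. With OF, ERO1B was above isotype in TMD8 and below it in U2932 (−1.17, adjusted p = 0.187). With the replicate block, HSPA13 and DNAJB9 passed the test for R (adjusted p = 0.0714 and 0.0365) and ERO1B for OF (adjusted p = 0.0380).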

How the results depend on the processing

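For most alternatives below, the share of all genes called is not given, so their counts do not single out the members. Leaving out the 2 libraries that differed from the rest left OF and isotype in TMD8 with 1 library each. In TMD8, 2 and 1 members were higher with R and OF. The counts were 10 and 10 with DESeq2, 7 and 6 with the GC correction, 17 and 12 with all 12 libraries in 1 fit, 8 and 8 with no low-count filter, 17 and 13 with the replicate block, 17 and 15 with block and GC correction, and 22 and 19 without the 2 libraries that differed from the rest. They were 0 and 0 at an adjusted p under 0.05, R had 1 with total counts, OF had 3 with at least 10 counts in every library, and leaving out 1 library gave 0 to 6 and 0 to 1. The lower count of 0 became 1 (R) and 2 (OF) without the 2 libraries, and 1 for OF with the block, with block and GC correction and with all 12 libraries. In U2932, 7 were higher and 7 lower with R and 8 and 7 with OF. The higher counts with R became 12 with the GC correction, alone or with the block, and those with R and OF became 4 and 4 with total counts and 1 and 1 with all 12 libraries or a 1.5-fold limit. OF had 4 higher without a filter, 5 at the stricter limit and 11 lower with total counts. The lower counts were 2 and 3 with all 12 libraries and 1 and 2 at 1.5-fold. Leaving out 1 U2932 library gave 5 to 9 higher and 5 to 9 lower with R and 2 to 10 and 3 to 9 with OF, the lowest for OF without OF replicate 1 or 2. The difference between lines with isotype stayed at 27 to 36 higher and 0 lower under every alternative. The 2 lower interactions for R became 9 with DESeq2, 1 with the GC correction, 4 without a filter, 14 with the block, 10 with block and GC correction, 1 at the stricter limit, 16 (and 1 higher) without the 2 libraries, and 0 to 9 without 1 library. The 1 for OF became 9 with DESeq2, 2 with the GC correction, 3 without a filter, 6 with the block, 12 with block and GC correction, 12 without the 2 libraries, and 0 to 3 without 1 library. R against OF in TMD8 had 1 member without the 2 libraries. The cause of these shifts was not tested. Of 35 results for single genes, 7 kept their call under every alternative run. Over 546 gene alternatives 426 kept the call, 120 lost it and 0 reversed. The replicate block changed the counts of calls by over 1.5 times in the TMD8 comparisons and the interactions only.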
